A study of Mus musculus with 35 samples.

Results

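The comparison was between CD8 T cells sorted from the liver as CXCR6neg and CD8 T cells sorted from the spleen as CX3CR1neg, both from mice on the diet labelled CD-HFD. Its members were chosen by their labels alone, 6 liver libraries and 6 spleen libraries, which are 12 of the 35 labelled samples of the series. All mice were C57BL/6 and 13 months old, and the other groups of the series were CXCR6pos liver cells on either diet and the same liver CXCR6neg and spleen CX3CR1neg gates from mice on the diet labelled ND. Cells went straight from the sorter into lysis buffer, and poly(A) RNA was read from its 3′ end in bulk. The labels give no further surface markers and do not say how either organ was turned into single cells. Tissue, gate and handling change together between the 2 groups, so their parts in any difference cannot be told apart. Whether each replicate is its own mouse is not stated either, and the p-values therefore reflect only how far these libraries scatter, which may be technical.

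CD8 T cells kill infected or transformed cells through granzymes, perforin and Fas ligand, and signal through cytokines and chemokines such as interferon gamma and CCL4. Naive and recirculating cells pass through the spleen and lymph nodes, while part of the CD8 pool of the liver stays in the organ and carries CXCR6, a receptor that marks such cells. CX3CR1 marks circulating effector cells. After a stimulus, T cells transcribe within minutes a first wave of genes, the immediate-early genes, whose products include the AP-1 factors FOS and JUN, the NR4A nuclear receptors, and phosphatases that end the signal.

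Total counts ran from 84808 to 355845 in the liver group and from 225036 to 978896 in the spleen group, with 8817 to 12402 and 11370 to 14953 genes detected. The median was 249030 in liver and 523614 in spleen. Counts of single genes given below are not scaled for this difference in depth. Liver replicate 5 had the lowest total of the 12 and stood apart from the other 5 on the first 2 principal components. One pair of libraries under the ND labels held identical counts for every gene and was left out of all fits, leaving 32 libraries. Levels are given as CPM, counts divided by library size, scaled by trimmed mean of M values (TMM). Some values were alike in libraries of neighbouring number. Erythroid genes summed to 7306 and 6384 CPM in liver replicates 1 and 2. The sums were 1769 and 1877 CPM in 3 and 4, and 9121 and 9187 CPM in 5 and 6. In the same order Cst3 read 1125 and 1030, 1474 and 1522, and 2569 and 2494 CPM in spleen. Whether such neighbours share a mouse was not tested, so each group may hold fewer than 6 independent samples. Fold changes are log2 values, liver over spleen, with their standard error, and a gene was called at a Benjamini-Hochberg adjusted p under 0.05 in edgeR's quasi-likelihood test over 6174 genes.

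The labelled cell type could be checked against its own transcripts. Cd8a, a chain of the CD8 coreceptor, lay between 836 and 1050 CPM in liver and between 898 and 1111 CPM in spleen. Its log2 difference was -0.19 ± 0.10 (adjusted p = 0.276), and the groups overlapped. Cd8b1, the other chain, differed by -0.15 ± 0.10 and Cd3e of the T cell receptor complex by 0.21 ± 0.09, neither past the threshold. Among 20 genes of T cell identity and receptor signalling, 2 were higher in liver and 18 were not called, with a median log2 difference of 0.09. Of the higher genes, the adhesion receptor Cd2 differed by 0.30 ± 0.10, a call lost in 10 of the 12 fits that left out 1 library.

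Transcripts of both gating markers were lower in the cells sorted as negative for them. Cxcr6 read 52.9, 79.5 and 124 CPM at the lowest, the median and the highest of the 6 liver CXCR6neg libraries and 126, 196 and 264 CPM in spleen. Every spleen library was above every liver library, and the log2 difference was -1.22 ± 0.39 (adjusted p = 0.0437), a call lost in 9 of the 12 fits that left out 1 library (adjusted p = 0.0516 without liver replicate 5). Cx3cr1 read 47.3, 56.2 and 76.5 CPM in liver and 5.38, 9.18 and 28.2 CPM in the CX3CR1neg spleen cells. The groups did not overlap, the highest spleen library lay far above the other 5, and the log2 difference was 2.49 ± 0.34 (adjusted p = 1.98e-08). CXCR6 was the marker gated against in liver and CX3CR1 the marker gated against in spleen, so neither difference is independent of the sort.

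Over all genes, 354 of 6174 (5.73%) were higher in liver and 291 (4.71%) were lower. The median log2 difference of all genes was -0.02. Among the calls, 187 of the higher genes and 76 of the lower ones differed at least 2-fold, and 69 against 13 at least 4-fold. For 365 genes (5.91%) the 6 libraries of one organ all lay on one side of the 6 of the other, 196 with liver above and 169 with spleen above. Without liver replicate 5 the counts were 337 higher and 244 lower. Predicted gene models, pseudogenes and receptor or antibody segments made up 17 of the higher and 91 of the lower genes and are counted only.

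**Figure D1:**
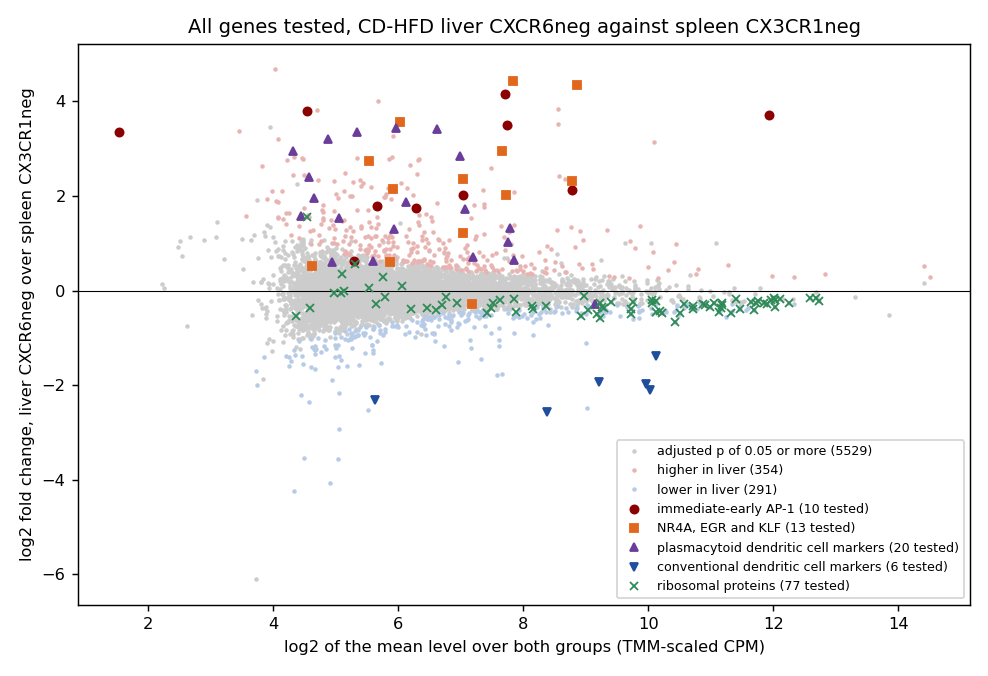
Log2 fold change of liver CXCR6neg over spleen CX3CR1neg (vertical axis) against the log2 of the mean level over both groups (horizontal axis) for the 6174 genes tested, with 354 higher and 291 lower genes in pale colours. Coloured symbols mark 5 gene lists, and the immediate-early genes reach above 4 on the log2 scale while the ribosomal proteins form a band just below 0.

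Among the lists with at least 5 tested genes, the AP-1 immediate-early list had the greatest median change. Its 13 genes code for FOS and JUN family factors and for the small IER proteins. Of the 10 tested members 9 were higher in liver and none was lower, with a median of 2.74 against -0.02 over all genes. The summed level of all 13 was 8758 to 10168 CPM in the 6 liver libraries and 706 to 1143 CPM in the 6 spleen libraries. Junb alone made up most of these sums, with means of 7264 CPM in liver and 550 CPM in spleen.

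Junb, a JUN family factor, read 6922, 7192 and 7772 CPM at the lowest, the median and the highest liver library. The same values in spleen were 384, 552 and 763 CPM. All 6 liver libraries were thus above all 6 spleen libraries, the spread within liver was small, and the log2 difference was 3.72 ± 0.11 (adjusted p = 4.74e-52), the smallest p of all genes.

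Fos, the founding member of its family, read 307, 378 and 498 CPM in liver and 15.02, 18.5 and 34.3 CPM in spleen, a log2 difference of 4.15 ± 0.23. Jun read 326, 387 and 488 CPM against 19.4, 36.6 and 46.6 CPM, a difference of 3.50 ± 0.24. Fosb, low in both organs, read 24.1, 32.1 and 79.3 CPM against 0, 0.779 and 6.85 CPM and differed by 3.79 ± 0.44. For each of these 3 genes the 2 groups did not overlap. Ier2, a short-lived nuclear protein, read 629, 723 and 802 CPM against 139, 168 and 179 CPM, again without overlap, and differed by 2.12 ± 0.11.

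The second immediate-early list held NR4A, EGR and KLF factors with the RGS and DUSP proteins that damp receptor and kinase signals. Of its 13 tested members 10 were higher, none was lower, and the median was 2.33. In all 10 called members the liver libraries lay above the spleen libraries, which held for 178 of all 354 genes called higher.

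Nr4a1, an orphan nuclear receptor induced by T cell receptor signals, read 335, 392 and 664 CPM in liver and 4.86, 15.9 and 30.1 CPM in spleen. The lowest liver library lay far above the highest spleen library, and the log2 difference was 4.44 ± 0.27 (adjusted p = 2.23e-13). Its relative Nr4a2 read 48.3, 130.03 and 158 CPM against 6.01, 7.94 and 21.9 CPM, a difference of 3.56 ± 0.34, with 1 spleen library set above the other 5. Dusp1, a phosphatase that switches off MAP kinases, read 582, 889 and 1154 CPM against 23.7, 39.0 and 68.5 CPM and differed by 4.36 ± 0.23.

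Klf6, a zinc-finger factor, read 676, 713 and 833 CPM against 97.1, 137 and 214 CPM, a difference of 2.33 ± 0.12. Rgs1, which blunts chemokine receptor signals, read 169, 361 and 472 CPM against 28.0, 49.6 and 82.6 CPM and differed by 2.96 ± 0.28. None of these groups overlapped. Cd69, an early activation antigen that also holds T cells in tissues, read 229, 321 and 450.3 CPM against 63.1, 81.8 and 100.4 CPM, a difference of 2.01 ± 0.14 without overlap. Not every gene of this kind was called: the growth regulator Myc differed by -0.28 ± 0.16, Klf10 by 0.60 ± 0.22 and Dusp6 by 0.52 ± 0.32.

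**Figure D2:**
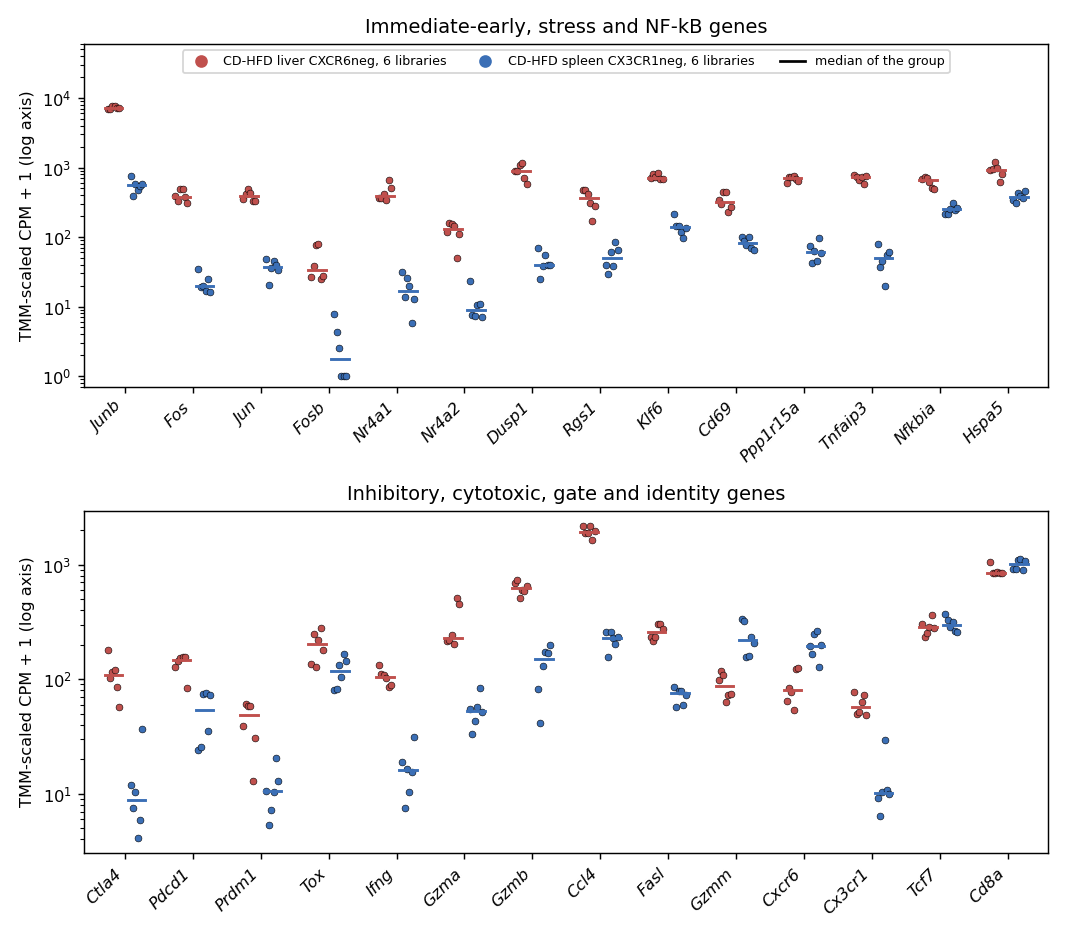
Level of selected genes in each of the 6 liver (red) and 6 spleen (blue) libraries, as TMM-scaled CPM plus 1 on a log axis, with a line at each group's median. In the upper panel all genes have the liver libraries above the spleen libraries. In the lower panel Tox, Prdm1, Tcf7 and Cd8a overlap between the organs, while Gzmm and Cxcr6 are higher in spleen.

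Because these lists moved together, the 250 bases upstream of their start sites were searched. TGACG is the short core bound by CREB and ATF factors, and TGACGTCA is the full palindrome that contains it on both strands. Sequences are shown for 4 members of high fold change, Fos, Junb, Nr4a1 and Nr4a2, a choice that followed no fixed rule. Dusp1 and Fosb changed more than Nr4a2 and are not shown. Jun, which held no TGACG match, is not shown either. None of the 4 windows overlaps an annotated exon. CGTCA is the same core read from the other strand. The sequences run 5′ to 3′ on the gene's strand, with each TGACG match on either strand in capitals. They come from RefSeq on GRCm38.p6.

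Fos, chr12:85473640-85473889, plus strand: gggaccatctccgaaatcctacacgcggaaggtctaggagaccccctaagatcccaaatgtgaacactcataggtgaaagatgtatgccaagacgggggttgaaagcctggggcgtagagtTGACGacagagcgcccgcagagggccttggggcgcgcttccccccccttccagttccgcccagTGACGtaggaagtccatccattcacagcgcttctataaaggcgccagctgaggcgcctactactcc
Junb, chr8:84978749-84978998, minus strand: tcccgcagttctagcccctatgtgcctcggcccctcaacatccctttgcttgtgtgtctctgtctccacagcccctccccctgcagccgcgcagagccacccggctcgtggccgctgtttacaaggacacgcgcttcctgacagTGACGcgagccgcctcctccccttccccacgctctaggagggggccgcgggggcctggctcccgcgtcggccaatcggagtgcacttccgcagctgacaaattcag
Nr4a1, chr15:101266596-101266845, plus strand: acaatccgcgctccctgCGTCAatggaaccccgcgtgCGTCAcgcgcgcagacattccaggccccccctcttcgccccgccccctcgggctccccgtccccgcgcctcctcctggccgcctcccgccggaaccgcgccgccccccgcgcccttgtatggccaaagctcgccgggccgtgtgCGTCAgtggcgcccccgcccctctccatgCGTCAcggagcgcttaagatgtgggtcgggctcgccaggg
Nr4a2, chr2:57124004-57124253, minus strand: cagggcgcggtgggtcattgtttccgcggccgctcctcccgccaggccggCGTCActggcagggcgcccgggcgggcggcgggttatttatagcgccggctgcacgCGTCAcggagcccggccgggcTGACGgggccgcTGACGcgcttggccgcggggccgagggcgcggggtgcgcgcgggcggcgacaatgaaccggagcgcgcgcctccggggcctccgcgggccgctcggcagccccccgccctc

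The Nr4a1 and Nr4a2 windows each held 4 matches, Fos held 2 and Junb held 1. In Fos they began 129 and 66 bases before the start site. Of the 30 called higher genes in the AP-1, NR4A and mRNA decay lists, 25 had a promoter in the table, and 12 of these (48%) held TGACG. By list it was in 3 of 8 (37.5%), 5 of 7 (71.4%) and 4 of 10 (40%), in that order. The mRNA decay list was not in the plan for this search. The core was in 17.9% of all 27025 promoters, in 30.7% of the 4577 promoters of tested genes, in 35.7% of 269 called higher genes and in 20% of 170 called lower genes. The palindrome TGACGTCA was in 3 of the 25, those of Dusp1, Btg2 and Ppp1r15a, against 1.62% of all promoters, 3.15% of those of tested genes and 4.09% of those of called higher genes. TGACTCA, the AP-1 site, was in none of the 25, in 4.43% of all promoters and in 2.95% of those of tested genes. A match shows letters in a window and no bound site.

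Transcripts for proteins that shorten messenger RNA or hold T cells at rest also rose. Of 12 tested genes in this list 11 were higher and none was lower, with a median of 1.29. Ppp1r15a, which restarts translation after stress, read 599.6, 707 and 749 CPM in liver and 40.9, 59.7 and 97.1 CPM in spleen. The groups lay far apart, with a log2 difference of 3.53 ± 0.15 (adjusted p = 1.69e-36). Zfp36, which binds AU-rich elements of cytokine messages, ran from 292 to 388 CPM in liver and 113 to 151 CPM in spleen, a difference of 1.39 ± 0.12. Btg2 and Btg1, antiproliferative factors tied to message deadenylation, differed by 1.28 ± 0.12 and 1.19 ± 0.15. Tsc22d3, the glucocorticoid-induced leucine zipper, ran from 449 to 894 CPM against 225 to 362 CPM and differed by 1.27 ± 0.17. The 1 tested member not called was Cnot6l, a deadenylase subunit, at -0.23 ± 0.18.

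Of 20 tested NF-kB and TNF response genes, 10 were higher and 1 was lower, with a median of 0.51. Tnfaip3, the A20 enzyme that restrains NF-kB, read 579, 720.4 and 787 CPM in liver and 18.8, 48.5 and 79.5 CPM in spleen. These groups did not overlap, and the difference was 3.84 ± 0.15. Nfkbia and Nfkbiz, both inhibitors of the IkB family, rose by 1.35 ± 0.11 and 2.17 ± 0.24. Nfkb2, a subunit of the factor itself, rose by 1.02 ± 0.21. The 1 lower gene was Cd83, an activation marker that dendritic and B cells also carry, at -1.65 ± 0.41.

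Stress genes moved in part. Among 15 tested heat-shock genes 7 were higher and none was lower, with a median of 0.44, and 4 were called without liver replicate 4. Hspa8, the constitutive HSP70, ran from 1339 to 1577 CPM in liver and 978 to 1245 CPM in spleen, without overlap, and differed by 0.44 ± 0.10. Dnajb1, its inducible partner, differed by 1.24 ± 0.22. Hspa1a, the inducible HSP70, ran from 20.7 to 120.5 CPM against 4.30 to 23.3 CPM, with overlap, and its difference of 2.28 ± 0.70 was not called in 6 of the 12 fits that left out a library. Hspa1a has a near-identical neighbour, Hspa1b, so its counts are uncertain.

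In the endoplasmic reticulum list 5 of 18 tested genes were higher, 1 was lower, and the median was 0.18. Hspa5, the chaperone BiP, read 615, 929 and 1211 CPM against 306, 375 and 459.7 CPM, no overlap, and differed by 1.29 ± 0.11. Dnajb9, its co-chaperone, differed by 2.47 ± 0.21 and Atf4, a factor of the integrated stress response, by 1.37 ± 0.14. The other 12 tested members were not called. Ddit4, an inhibitor of mTOR, was the 1 lower gene at -1.59 ± 0.32.

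**Figure D3:**
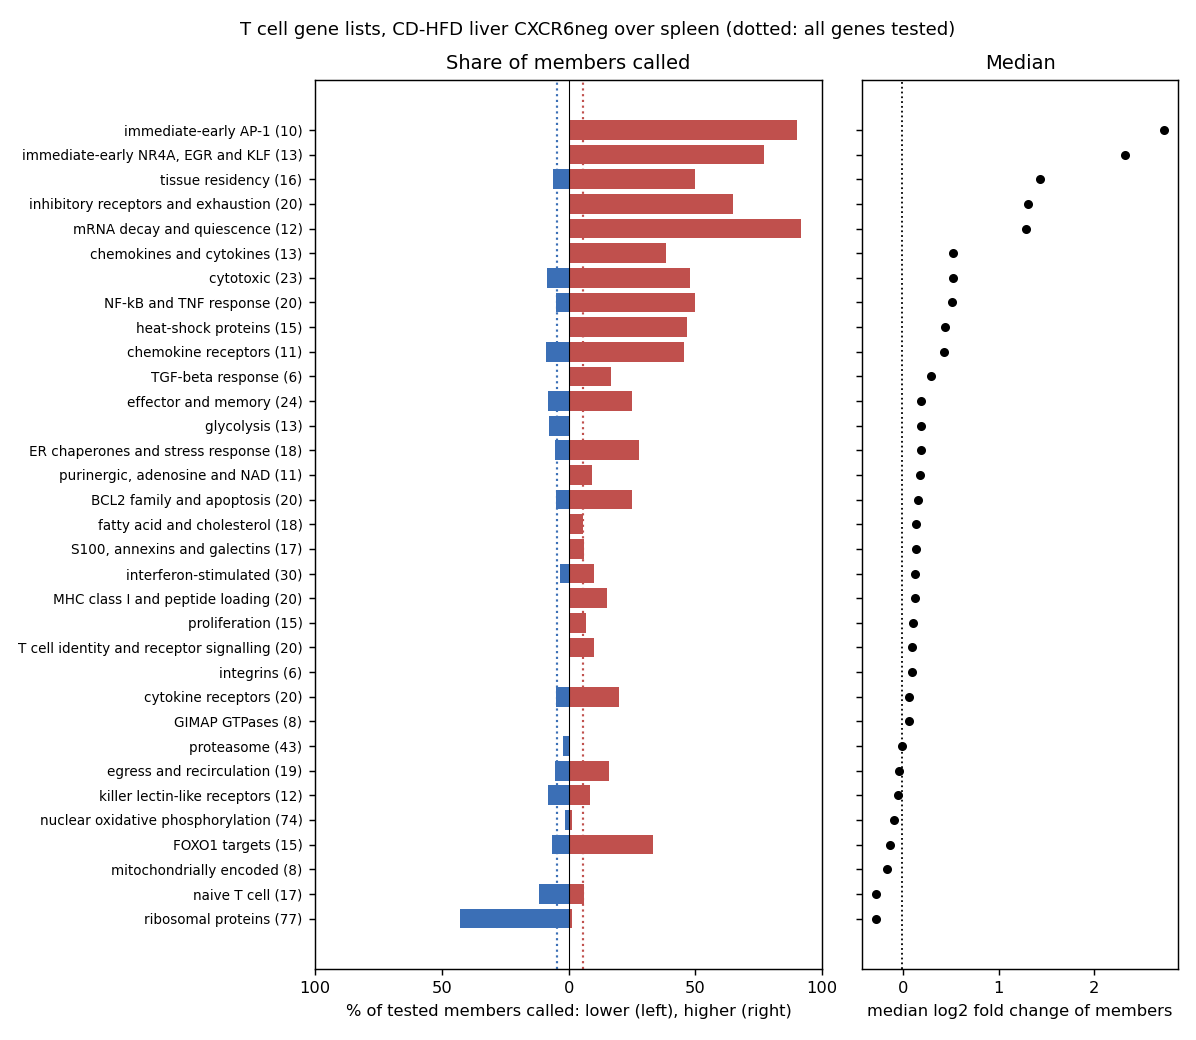
Share of tested members called lower (blue, left) or higher (red, right) in liver for each T cell list with at least 5 tested genes (number in brackets), and the median log2 fold change of the members. Dotted lines mark the shares over all genes, 5.73% and 4.71%, and their median of -0.02. The 2 immediate-early lists stand at the top and the ribosomal proteins at the bottom.

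Inhibitory receptors and genes tied to T cell exhaustion were the next group. Of 20 tested members 13 were higher and none was lower, with a median of 1.31. Among these, Nr4a1 and Nr4a2 are also immediate-early genes. Rgs16, a damper of G protein signals, read 60.2, 89.1 and 146 CPM in liver and 0, 7.25 and 14.6 CPM in spleen. The groups did not overlap, and the difference was 4.01 ± 0.33. Bhlhe40, a repressor that supports effector and resident cells, read 368, 405 and 467 CPM against 21.03, 38.1 and 57.6 CPM and differed by 3.49 ± 0.17.

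Ctla4, an inhibitory receptor for CD80 and CD86, read 56.2, 108 and 179 CPM in liver and 3.14, 7.90 and 36.1 CPM in spleen. A single spleen library was well above the other 5, yet all 6 liver libraries were higher still, and the difference was 3.27 ± 0.42. Pdcd1, which codes for PD-1, read 82.8, 148 and 157 CPM against 23.3, 53.0 and 75.3 CPM, without overlap, a difference of 1.48 ± 0.27 (adjusted p = 0.000117). Tox, a factor that sustains exhausted cells, read 127, 200.3 and 277 CPM against 79.5, 117 and 165 CPM. Its groups overlapped, and the difference of 0.82 ± 0.21 passed the threshold (adjusted p = 0.00801).

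Prdm1, which codes for BLIMP-1, ran from 12.1 to 60.2 CPM against 4.30 to 19.4 CPM and differed by 2.35 ± 0.36. Batf, an AP-1 partner, ran from 148 to 256 CPM against 77.5 to 151 CPM and differed by 1.10 ± 0.17. Both overlapped. The other 7 tested members were not called, among them the ectoenzymes Entpd1 at 0.64 ± 0.27 and Cd38 at 0.79 ± 0.32. Cd160, an inhibitory receptor, was another of the 7 and went the other way, at -0.91 ± 0.36. Its means were 56.2 CPM in liver and 108 CPM in spleen. The other 19 of the 20 tested members had positive differences.

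Cytotoxic genes split. Of 23 tested members 11 were higher and 2 were lower, with a median of 0.53. Ccl4, a chemokine that draws other immune cells, read 1641, 1942 and 2169 CPM in liver and 154, 230.1 and 258 CPM in spleen. All liver libraries lay far above all spleen libraries, and the difference was 3.15 ± 0.29 (adjusted p = 3.18e-09). Ifng read 84.5, 105 and 132 CPM against 6.46, 15.1 and 30.0 CPM, without overlap, a difference of 2.83 ± 0.32.

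Gzmb, the caspase-activating granzyme, read 514, 628 and 726 CPM in liver and 40.9, 149.6 and 198 CPM in spleen, a difference of 2.43 ± 0.35. Gzma, another granzyme, read 203, 229.7 and 507 CPM against 32.3, 52.3 and 82.6 CPM and differed by 2.60 ± 0.47. Neither pair of groups overlapped. Fasl, the ligand of the death receptor FAS, read 215, 255 and 302 CPM against 56.0, 75.0 and 84.9 CPM, again apart, and differed by 1.84 ± 0.15.

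Ccl5, a chemokine of memory and effector cells, read 24004, 25461 and 27495 CPM in liver and 13121, 18176 and 22839 CPM in spleen. The groups were separate and the difference was modest, 0.53 ± 0.10. Srgn, the proteoglycan that packs granules, differed by 0.91 ± 0.10. Prf1, which codes for perforin, was not called at 0.16 ± 0.13. The 2 lower genes, named after their values were seen, were Gzmm, which ran from 61.7 to 117 CPM against 154 to 334 CPM without overlap and differed by -1.44 ± 0.26, and Ctsw at -0.46 ± 0.12.

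Among chemokine and cytokine genes 5 of 13 tested were higher and none was lower. Beyond those above, Il10, the anti-inflammatory cytokine, had 44 counts over the 6 liver libraries and 3 over the 6 spleen libraries. The depth-scaled ratio was 35.5 with a counting interval of 11.4 to 178, which covers counting error only, and 1 liver library read 0. Tnf differed by 0.86 ± 0.54 and was not called.

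The tissue residency list had 8 higher and 1 lower of 16 tested genes and a median of 1.44. The 8 were Nr4a1, Nr4a2, Bhlhe40, Rgs1, Rgs2, Prdm1, Cd69 and Fosl2, of which 6 are also immediate-early genes of the lists above. The 1 lower gene was Cxcr6. The integrin Itga1 at -0.52 ± 0.50 was not called, and Itgae, its CD103 relative, was too low to test, with 10 counts in liver and 38 in spleen. Scaled for depth, the Itgae means were 7.70 CPM in liver and 11.2 CPM in spleen.

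Most genes of naive and recirculating cells were not called. Of 17 tested naive genes 1, Ccr9, was higher and 2, Nsg2 and Npm3, were lower, beside 5.73% and 4.71% of all genes. The median was -0.28 against -0.02 over all genes, and 5 of the 17 had a positive difference. Tcf7, the factor TCF-1, ran from 233 to 362 CPM in liver and 258 to 367 CPM in spleen and differed by -0.14 ± 0.12. Ccr7, a receptor that guides cells to lymph nodes, differed by 0.42 ± 0.26 and S1pr1, the egress receptor, by -0.22 ± 0.12, neither of them called. Foxo1, a factor of quiescent T cells, differed by -0.32 ± 0.31 and was not called. Klf2, which drives S1pr1, was higher in liver: it read 1167, 1425 and 1508 CPM against 505, 799.8 and 938 CPM, without overlap, a difference of 0.81 ± 0.10 (adjusted p = 1.67e-10).

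Of 11 tested chemokine receptor genes 5 were higher and 1, Cxcr6, was lower. Ccr9, a gut-homing receptor that plasmacytoid dendritic cells also carry, ran from 6.34 to 71.5 CPM in liver and 2.15 to 9.71 CPM in spleen, with overlap, and differed by 3.20 ± 0.57. Gpr183, an oxysterol receptor, differed by 0.72 ± 0.13. Of the effector and memory list, 6 of 24 tested genes were higher and 2 were lower. Klrg1, a receptor of terminal effector cells, differed by 1.93 ± 0.45, while Ly6c2, a memory antigen, was lower at -0.55 ± 0.10.

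Cytokine signalling genes gave 4 higher and 1 lower of 20 tested. Socs3, a feedback inhibitor of cytokine receptors, ran from 203 to 312 CPM in liver and 39.1 to 100.02 CPM in spleen and differed by 1.77 ± 0.17 without overlap. Ifngr1, a chain of the interferon gamma receptor, differed by 0.56 ± 0.11. Of 20 tested apoptosis genes 5 were higher and 1 was lower, with Pmaip1, the BH3 protein NOXA, at 1.34 ± 0.25 and Bcl2 at -0.38 ± 0.12, a call lost in 5 of the 12 fits that left out a library. P2rx7, the ATP receptor, was low in both organs and differed by 1.08 ± 0.72 (adjusted p = 0.405), while P2ry10, a lysophospholipid receptor, was the 1 called gene of 11 in the purinergic list at 2.03 ± 0.24.

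Several lists gave few or no calls, where over all genes 5.73% were higher and 4.71% lower. Interferon-stimulated genes had 3 higher and 1 lower of 30 tested, and MHC class I genes 3 higher of 20. In both the share of higher genes was above that over all genes. The proteasome had 1 lower of 43. Oxidative phosphorylation had 1 gene each way of 74 tested, glycolysis 1 lower of 13, and fatty acid and cholesterol genes 1 higher of 18. Proliferation had 1 higher of 15, and GIMAP genes, integrins and mitochondrially encoded genes had none. B2m, the light chain of MHC class I, was among the 3, at 0.34 ± 0.08.

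Ribosomal protein genes shifted by small amounts in one direction. Of 77 tested genes 33 were lower in liver and 1 was higher, with a median of -0.29. Their summed level was 95646 to 116140 CPM in liver and 122420 to 132390 CPM in spleen, so the sums did not overlap. Rps24 read 1532, 1971 and 2165 CPM in liver against 2542, 2582 and 2639 CPM in spleen, a difference of -0.45 ± 0.10, and Rpl22 differed by -0.49 ± 0.10. Rpl10, the 1 higher gene, ran from 12.1 to 56.5 CPM in liver and 6.01 to 17.1 CPM in spleen. The count of lower genes rested on single libraries: it was 16 without liver replicate 2, 21 without spleen replicate 2 and 24 without liver replicate 5. Many of these genes have near-identical processed copies, so their counts are uncertain.

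Transcripts of other cell types differed between the 2 sorts, and in bulk RNA fewer cells of a type and less RNA per cell cannot be told apart. Of 20 tested plasmacytoid dendritic cell markers 14 were higher in liver and none was lower, with a median of 1.65. The summed level of all 26 markers was 2454 to 3391 CPM in liver and 1502 to 1654 CPM in spleen. Siglech, the surface lectin that defines these cells, read 123, 182 and 241 CPM in liver and 6.46, 17.2 and 31.4 CPM in spleen, a difference of 3.41 ± 0.53. Cox6a2, a respiratory chain subunit restricted to few cell types, read 76.1, 119 and 133 CPM against 4.86, 10.3 and 18.0 CPM and differed by 3.44 ± 0.57. For both the groups were apart. Klk1, a kallikrein, differed by 3.35 ± 0.48, and Ly6d, shared with B cells, by 2.84 ± 0.52.

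Conventional dendritic cell markers went the other way. All 6 tested of 18 in the table were lower in liver, with a median of -2.04, and the summed level was 1653 to 2023 CPM in liver and 4169 to 9766 CPM in spleen. H2-Eb1, an MHC class II chain, read 76.1, 97.2 and 106 CPM in liver and 343, 493 and 889 CPM in spleen, a difference of -2.56 ± 0.31. Cst3, an abundant cystatin of these cells, read 217, 394 and 514 CPM against 1030, 1498 and 2569 CPM and differed by -2.10 ± 0.22. Neither overlapped, and the spleen libraries varied among themselves more than the liver libraries did. The defining markers were too low to test: Xcr1 had 2 counts in liver and 52 in spleen, Clec9a 5 and 31, and Zbtb46 0 and 7.

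B cell markers were lower in 6 of 10 tested genes and higher in 1, Ly6d, with a summed level of 2066 to 2348 CPM in liver and 5446 to 7668 CPM in spleen. Of the 6, 4 are MHC class II genes or Cd74, which the dendritic list also holds. Igkc, the kappa light chain, read 119, 161 and 213 CPM in liver and 156, 918 and 1643 CPM in spleen. Its spleen libraries spread widely and overlapped liver, and the difference was -2.48 ± 0.46. In liver the lineage markers Cd79a and Ms4a1 had 0 counts, against 7 and 25 in spleen.

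Of 6 tested macrophage markers 3 were higher and 2, Lyz2 and Aif1, were lower, and 11 of the 24 in the table had no count in liver. The 3 were Tyrobp at 2.09 ± 0.37, Fcer1g at 1.25 ± 0.21 and Cd68 at 1.32 ± 0.29, of which Tyrobp and Fcer1g are adaptors that plasmacytoid dendritic and NK cells also use. Clec4f, which defines Kupffer cells, had 0 counts in both groups and Adgre1 0 in liver and 2 in spleen. NK markers were higher in 3 of 13 tested genes, with sums of 2552 to 2991 CPM in liver and 2150 to 2419 CPM in spleen. Several of the NK markers are also expressed by CD8 T cells. Those 3 were Gzma, Tyrobp and Fcer1g, and the NK receptor Ncr1 had 0 counts in liver and 1 in spleen.

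Markers of CD4 and regulatory T cells were higher in 5 of 7 tested genes, Ctla4, Tnfrsf4, Icos, Ikzf2 and Tnfrsf18, with overlapping sums of 458 to 1136 CPM in liver and 356 to 577 CPM in spleen. Icos, a costimulatory receptor, differed by 1.32 ± 0.25 and Tnfrsf4, which codes for OX40, by 2.17 ± 0.47. Cd4 itself had 15 counts in liver and 12 in spleen, and Foxp3 had 1 and 13. These counts are not scaled for depth, and the median total was 249030 in liver and 523614 in spleen. The Cd4 counts thus stand for a higher level in liver and the Foxp3 counts for a lower one. Neither was tested. Haemoglobin and other erythroid genes summed to 1769 to 9187 CPM in liver and 2411 to 5252 CPM in spleen, with none of 7 called. Of 31 hepatocyte markers 1 was tested, Apoe, and Alb had 1 count in liver and 11 in spleen.

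These marker levels moved with the comparison, and their part in the gene groups above was not tested. Of 19 monocyte and neutrophil markers 14 had no count in liver, among them S100a8, which had 1 count in spleen. The only called one of the 2 tested was Ly6c2, the memory antigen above, which CD8 T cells carry too and which made up nearly all of the list's summed level.

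**Figure D4:**
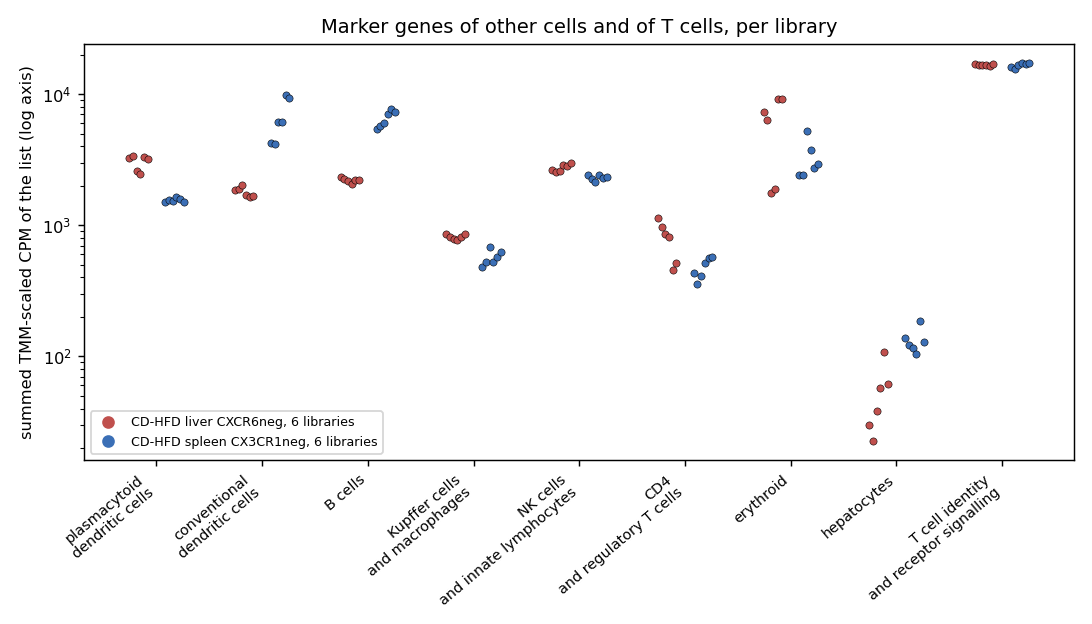
Summed level of the marker genes of other cell types and of T cell identity genes in each of the 6 liver (red) and 6 spleen (blue) libraries, in TMM-scaled CPM on a log axis. Plasmacytoid dendritic cell sums are higher in every liver library, conventional dendritic cell and B cell sums are higher in every spleen library, and T cell identity sums overlap.

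The greatest falls were in genes with few counts in liver. Dnase1l3, a secreted nuclease of dendritic and endothelial cells, had 2 counts over the 6 liver libraries and 105 over the 6 spleen libraries. Its depth-scaled ratio, spleen over liver, was 21.7 with a counting interval of 5.87 to 182. Lyz2, the lysozyme of myeloid cells, ran from 0 to 8.87 CPM in liver and 25.1 to 82.6 CPM in spleen and differed by -4.06 ± 0.51. Cd81, a tetraspanin of B cells and others, ran from 0 to 12.1 CPM against 41.1 to 87.1 CPM and differed by -3.56 ± 0.45.

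G0s2, an inhibitor of fat breakdown, read 0, 1.48 and 25.5 CPM in liver and 42.1, 62.2 and 74.0 CPM in spleen, without overlap, and differed by -2.93 ± 0.38. Jchain, the joining chain of antibodies, overlapped and differed by -3.55 ± 0.79. Falls in genes with substantial levels in liver were smaller. Ppt1, a lysosomal thioesterase, read 24.1, 65.6 and 76.5 CPM against 127, 192 and 252 CPM and differed by -1.51 ± 0.18, and Arl4c, a small GTPase, read 86.6, 122 and 145 CPM against 219, 275 and 301 CPM and differed by -1.16 ± 0.14. In both the organs were apart.

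Other genes of high fold were in no list: Plaur, the urokinase receptor, at 3.82 ± 0.53, Sik1, a salt-inducible kinase, at 3.20 ± 0.49, and Csrnp1, a nuclear factor, at 2.77 ± 0.21.

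The same pair of gates on the ND diet had 4 liver and 5 spleen libraries in the fit and gave 292 higher and 132 lower genes. Of the 354 genes higher on CD-HFD 341 had the same sign on ND and 190 were called there too, and of the 291 lower genes 278 and 78. None was called in the opposite direction. The 2 diets share no library, but they share the fit's estimate of spread. Junb differed by 4.17 ± 0.13 on ND beside 3.72 on CD-HFD, Nr4a1 by 4.35 ± 0.30 beside 4.44, and Siglech by 3.51 ± 0.69 beside 3.41. Pdcd1 differed by 0.28 ± 0.56 on ND beside 1.48, Tox by 0.11 ± 0.33 beside 0.82 and Batf by 0.01 ± 0.25 beside 1.10, and none of these 3 was called on ND.

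**Figure D5:**
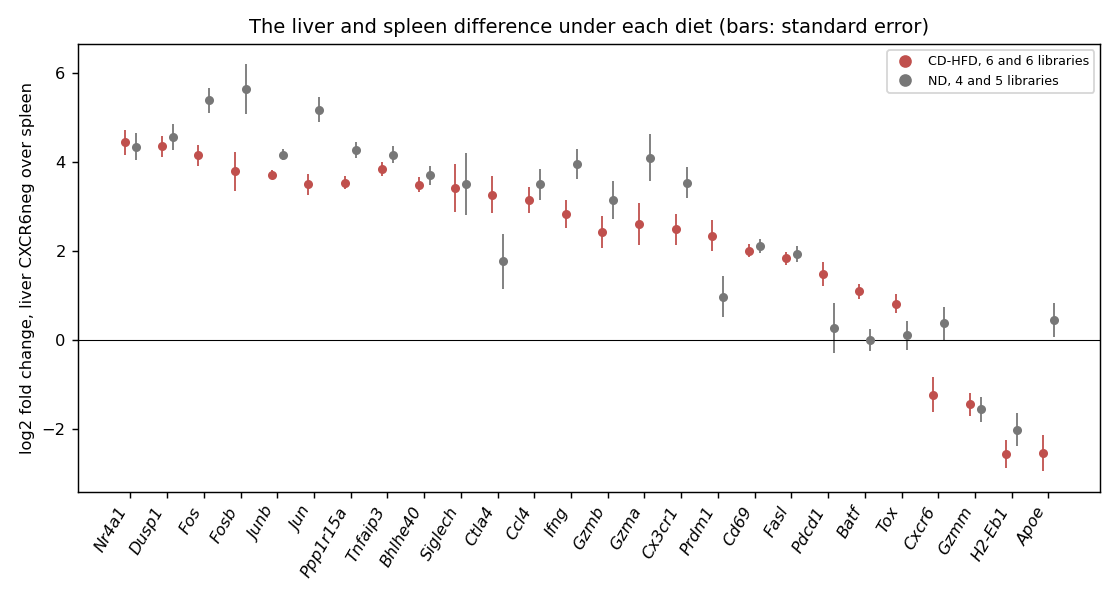
Log2 fold change of liver CXCR6neg over spleen CX3CR1neg under CD-HFD (red, 6 and 6 libraries) and under ND (grey, 4 and 5 libraries) for selected genes, with bars of 1 standard error. The immediate-early genes are far above 0 under both diets, while Apoe is below 0 under CD-HFD and above 0 under ND.

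Whether the difference depended on diet was tested by the interaction of gate and diet. No gene of 6174 passed (0% called), 319 had an unadjusted p under 0.05, and the DESeq2 test passed 2, with 219 at an unadjusted p under 0.05. The count was 5 without ND liver replicate 2, 2 without ND liver replicate 3 or CD-HFD spleen replicate 3, and 1 without CD-HFD liver replicate 4 or 6. The smallest adjusted p was that of Apoe, the lipid carrier, which fell by 2.53 on CD-HFD and differed by 0.45 ± 0.38 on ND (interaction -2.98 ± 0.58, adjusted p = 0.0580). It read 4.41, 11.7 and 26.6 CPM in CD-HFD liver and 65.9, 81.1 and 92.6 CPM in CD-HFD spleen, without overlap. Next came the small GTPase Rab37 at -1.30 ± 0.29 (adjusted p = 0.0616), the small RNA gene Snord118, and the lectin Lgals3 at -1.97 ± 0.46 (adjusted p = 0.366). Batf was the fifth, with an interaction of 1.09 ± 0.29 (adjusted p = 0.366). Pdcd1 had an interaction of 1.2 ± 0.62 and Cxcr6 of -1.60 ± 0.54, and neither passed (adjusted p = 0.936 and 0.687).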

How the data were processed

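Bulk 3′ RNA libraries of sorted mouse CD8 T cells were analysed from 1 table of 22865 genes. The authors deposited whole-number counts per gene that are not normalized, per the file headers and values. Primers carried unique molecular identifiers, per the labels' protocols; whether reads were collapsed by them, and which aligner, counter, annotation and strand setting were used, is not given in the sources used here. GRCm38.p6 and DESeq2 1.14.1 are named in the submitters' processing notes. Of the table's columns 34 matched a sample, and 1 column matched none and was not used. CD-HFD CXCR6pos replicate 6 was not analysed here. Of the gene symbols 17 had been turned into dates.

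An ND liver CXCR6neg library (replicate 1) and an ND spleen library (replicate 6) were identical over the 22865 genes, and both were left out. The other 32 libraries of 6 groups were fitted together, so that all groups share 1 estimate of spread: edgeR 4.0.16 (R 4.3.3) with filterByExpr by group, TMM scaling, robust quasi-likelihood fits and Benjamini-Hochberg adjustment over 6174 genes at 0.05. The biological coefficient of variation was 0.122. The fit was tested on simulated data. Levels are CPM scaled by TMM, and a standard error is the log2 fold change divided by the root of its F. Counting intervals are at 95%, cover counting error only and are exact.

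Genes were named by 1 rule: called, at least 20 CPM in the higher group, and either among the 20 largest changes or the 15 smallest p-values in a direction, besides up to 6 members of each list by p and a fixed set of T cell genes. Uncalled or single called members outside this rule (Myc, Klf10, Dusp6, Cnot6l, Cd160, Prf1, Tnf, Gzmm, Ctsw, Fosl2 and untested markers) were chosen after their values were seen. Some genes that the rule named are not reported here. Groups, members and the gene lists were chosen with earlier results of these data known. Promoters came from a RefSeq table of GRCm38.p6, and exons from GENCODE M21.

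Alternatives were another scaling (DESeq2-type size factors, or library size alone), no filter, a stricter filter of 10 CPM in 6 libraries, the DESeq2 1.42.0 Wald test, a fit of the 12 libraries alone, a replicate block, glmTreat against 1.5-fold, keeping the identical libraries, leaving out libraries of low depth, thinning to the smallest total, and leaving out each library. Counts of list members without each library, and a 4-group fit without a block, were added after seeing the data.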

Additional observations from a re-analysis of the deposited data

Results flagged for a closer look

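Most named genes, summed lists and totals were screened for a single library set apart from the other 5 of its group. Of 224 groups of 6 libraries, 11 were marked. Chance marks about 1 in 20 such groups. All 11 were the highest library of the group.

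In liver, Cd8a reached 1050 CPM in 1 library against a median of 844.5 CPM in the others, the clearest separation. Apoe reached 26.6 CPM against 11.3 CPM, Entpd1 97.8 CPM against 50.7 CPM, Myc 216 CPM against 113 CPM, P2rx7 36.2 CPM against 7.53 CPM and Pmaip1 96.9 CPM against 60.3 CPM. The P2rx7 value was that of liver replicate 5, the library of lowest depth.

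In spleen, Cx3cr1 reached 28.2 CPM in 1 library of the CX3CR1neg sort against a median of 9.01 CPM in the others. Ctla4 reached 36.1 CPM against 6.46 CPM, Batf 151 CPM against 90.4 CPM, Nfkb2 63.1 CPM against 37.7 CPM and Nr4a2 21.9 CPM against 6.46 CPM. In the case of Cx3cr1, Ctla4 and Nr4a2 this library still lay below all 6 liver libraries. The same held narrowly for Nfkb2, whose lowest liver library read 63.4 CPM.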

How the results depend on the processing

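The counts of 354 higher and 291 lower genes kept within 1.5 times under all alternatives but the thinned fit and the fold test. Thinning the 12 libraries to the smallest total left 1505 genes to test, of which 104 were higher and 122 lower, and a test against a fold of 1.5 called 140 and 32. Leaving out each library gave 297 to 367 higher and 197 to 284 lower genes. The replicate block gave 324 and 276. Same-numbered liver and spleen libraries correlated between -0.04 and 0.03 in their deviations over all genes. At these depths such deviations carry much counting noise, so this cannot show whether the numbers pair the samples. Neither the block nor the correlation compared libraries of neighbouring number within a group. Under the block Igkc, Klrg1 and Tnfrsf4 were not called (edgeR adjusted p = 0.0882, 0.164 and 0.145), and Ccr7, Cd3e and Klf10 were called (0.00835, 0.0494 and 0.0441). No filter gave 357 and 361 of 22378 tested, with 258 of the 354 still called, and DESeq2 gave 307 and 215.

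The interaction with diet called no gene in the main test. It called 1 lower with DESeq2-type size factors, 4 with no filter, 2 with DESeq2, 8 in the fit of 4 groups without a block, and 1 higher and 5 lower with the replicate block. Leaving out each library gave 0 to 5 lower genes and 0 higher. The cause of these changes was not tested.

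Of 85 called genes given with values, 81 were called in every fit that left out a library and 66 under every alternative that tested them. Each fit that left out a library kept its neighbours by number. These fits therefore cannot show dependence on a source that neighbouring libraries may share. The 4 exceptions were Cd2 (lost in 10 of 12 fits), Cxcr6 (9), Hspa1a (6) and Bcl2 (5). Of the genes followed through these fits, Tcf7 alone changed sign, to 0.040 in the thinned fit, where it was not called either. The depth limits what can be said of genes with few counts: most defining markers of other cells were too low to test.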
